A study of Mus musculus with 6 samples.

Results

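Genes of immature blood progenitors were followed in Ter119-positive cells of the mouse fetal liver, with and without STAT5. The group holds 10 genes: the transcription factor genes Myb, Myc, Meis1, Runx1, Spi1, Cebpa and Hhex, the receptor gene Kit, and the surface glycoprotein genes Cd44 and Cd34. All 23 probe sets that the array annotation pairs with 1 of these symbols alone were taken, out of 45037 probe sets on the array, so that 10 of 18193 measured genes are described. The genes were chosen from measured values, the signal differences between the same knockout and wild type arrays, and the genotype differences below are therefore given as a description, with no test in their support. The 6 arrays each measured a pool of cells from 3 to 5 embryos at embryonic day 14.5, with 3 wild type pools and 3 pools of embryos that the labels call STAT5 KO. All pools were selected for Ter119, a surface antigen of maturing red cell precursors, and no other treatment is recorded. The sources used here do not give the allele, the strain or whether both STAT5 genes are deleted in every cell, and Ter119 selection leaves in each pool whatever other cells came through it.

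In the fetal liver, stem cells give rise to progenitors that lose multipotency and, along the erythroid path, become burst-forming and colony-forming cells and then erythroblasts. KIT, the receptor for stem cell factor, and MYB and MYC sustain proliferation before that last step and are switched off as erythroblasts mature. PU.1 (encoded by Spi1), C/EBPα (Cebpa), RUNX1, MEIS1 and HHEX act in stem cells or in other blood lineages, and C/EBPα and HHEX also act in liver cells. The proteins STAT5A and STAT5B enter the nucleus and bind DNA once the erythropoietin receptor or KIT has signalled.

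The values are linear intensities per probe set, referred to as signals. Array medians ranged from 175.4 to 215.8. A signal of 162.5, at the 95th percentile of the 27 probe sets that target Bacillus subtilis transcripts, served as the control level, under which a signal was taken as not above background. Probe sets of the targeted genes, Stat5a and Stat5b, were lower in each knockout array than in each wild type array at all 4 probe sets, by 2.45-fold at 1422102_a_at of Stat5b and by at least 2.29-fold at 1421469_a_at of Stat5a. Of 7 measured erythroid markers all lay above the control level in every array, with the exception of 1 marker in 1 knockout array. Of the 7, 6 were lower in knockout, with a median difference of -0.16, where 10570 of all 18193 genes were lower. The embryonic globin gene Hbb-bh1 was the 1 erythroid marker whose groups did not overlap, at -1.18 (SE 0.42). Among all genes 9.85% had knockout below wild type without overlap. In pools, fewer cells that carry a transcript and less of it per cell cannot be told apart. Each difference is on the log2 scale, with wild type subtracted from knockout, and carries the standard error (SE) from a limma fit to the whole table. Means are of log2 signals, ± SD over n = 3 arrays of a genotype. The p-values set the genotype difference against the spread between separate pools, as limma estimates it over the whole table. The 3 arrays per group limit the precision.

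Myb, Myc, Kit and Cd44 were higher in knockout pools, while Cd34, Meis1, Runx1, Cebpa and Hhex showed no separation of the genotypes at any probe set. All knockout arrays lay above all wild type arrays at 9 of the 23 probe sets, which belong to Myb (3), Cd44 (3), Myc, Kit and Spi1, and lay below them at 0. Over the whole array such separation was seen at 6.84% of probe sets upward and 8.95% downward. Since the genes were picked with this contrast in view, nothing is read from the excess. The median difference over the 23 probe sets was 0.59, beside a median of -0.085 over all genes. Of the 23, 15 had both genotype means above the control level, 3 had 1 and 5 had neither. Over the whole table limma called no probe set (0% of 45037, with 3606 at an unadjusted p under 0.05), and with a mean-variance trend it called 70, or 0.155%. No probe set of the 10 genes was among them: the smallest adjusted p was 0.343 without the trend and 0.0754 with it, both at Myb. The count of 70 changed to 7 or 20 when wild type replicate 1 or 2 was left out, and to 18, 13 or 8 when knockout replicate 1, 2 or 3 was.

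**Figure D1:**
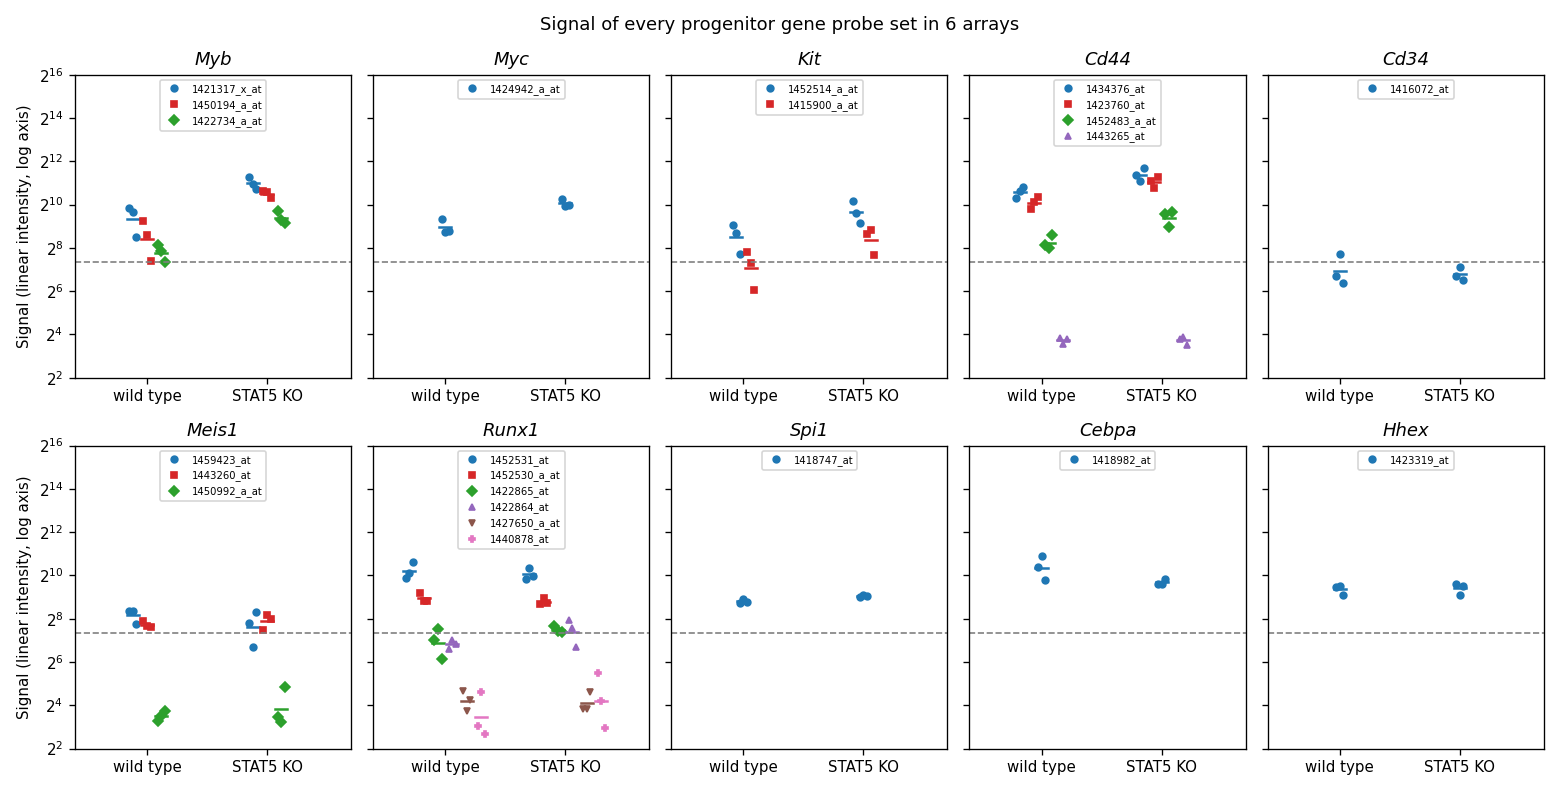
Signal of each of the 23 probe sets (y axis, linear intensity on a log2-spaced axis) in the wild type and STAT5 knockout arrays (x axis, 3 points per genotype). Short bars are geometric means and the dashed line is the control level of 162.5; the 3 Myb probe sets separate the genotypes, while those of Meis1, Runx1, Cebpa and Hhex overlap.

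Myb encodes a transcription factor of proliferating progenitors that is needed for definitive blood formation in the fetal liver. Its brightest probe set, 1421317_x_at, read 917, 809 and 367 in wild type pools 1 to 3 and 2497, 2005 and 1675 in the knockout pools. The dimmest knockout pool was thus brighter than the brightest wild type pool, with means of 9.34 ± 0.72 and 10.99 ± 0.29 and a difference of 1.65 (SE 0.41), or 3.13-fold. Probe set 1450194_a_at read 612, 383 and 166 in wild type and 1562, 1515 and 1277 in knockout, a difference of 2.09 (SE 0.49). Probe set 1422734_a_at read 281, 228 and 161 against 831, 616 and 567, a difference of 1.60 (SE 0.30). Wild type pool 3 was the lowest array at all 3, and at the last it was under the control level. Without that pool the differences were 1.24, 1.58 and 1.39, and the groups stayed apart. The suffix of the brightest probe set marks probes that may also bind other transcripts, but the other 2 probe sets gave the same direction.

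Myc encodes the transcription factor MYC, which drives growth and ribosome production and is switched off as erythroblasts stop dividing. It has 1 probe set. Its signals were 637, 428 and 447 in wild type and 1218, 989 and 1003 in knockout, 8.95 ± 0.31 against 10.06 ± 0.17. The difference was 1.10 (SE 0.25), or 2.15-fold. With any 1 array left out it ran from 1.0, without wild type pool 2, to 1.28, without wild type pool 1. The wild type arrays had a smaller SD than at any probe set of Myb or Kit, and pool 1 was the highest in both genotypes.

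Kit encodes the stem cell factor receptor of progenitors and mast cells. Probe set 1452514_a_at read 526, 415 and 209 in wild type and 1148, 782 and 569 in knockout. The groups did not overlap, but knockout pool 3 and wild type pool 1 were close, and the difference was 1.16 (SE 0.44), or 2.24-fold. Probe set 1415900_a_at read 221, 157 and 67.2 in wild type, where only pool 1 was above the control level, and 399, 449.8 and 201 in knockout. Here the groups overlapped, and the knockout mean was at least 1.84-fold above wild type. Wild type pool 3 was again the lowest array, and without it the differences were 0.77 and 0.83. Mast cells also carry Kit, so a list of mast cell and granulocyte markers stands beside it. The list mixes mast cell genes with granulocyte genes such as Mpo and Elane, so its sum does not describe mast cells alone. The summed signal of 10 mast cell and granulocyte markers ran from 5374 to 8576 in wild type and from 3389 to 8913 in knockout. Of the 10, 1 was higher and 9 lower in knockout, with a median of -0.28, where 10570 of all 18193 genes were lower. Groups did not overlap downward for 1 of them and upward for 0, beside 9.85% and 7.02% of all genes. In each knockout pool 3 of the 10 were under the control level. These included the mast cell protease gene Cpa3, at 28.1 to 115, and the basophil protease gene Mcpt8, at 12.6 to 22.6. Brighter in those pools were Gata2, at 617 to 815, and Mpo, at 950 to 3138. The part of mast cells in the Kit signal was not tested.

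Cd44 encodes a hyaluronan receptor that is abundant on early erythroblasts and declines as they mature. Probe set 1434376_at read 1269, 1581 and 1780.1 in wild type and 2628, 2175 and 3275 in knockout, a difference of 0.80 (SE 0.26). At 1423760_at the signals were 879, 1099 and 1328 against 2172, 1767 and 2452, and the difference was 0.96 (SE 0.26). At 1452483_a_at they were 278, 257 and 388 against 762, 497 and 806, and the difference was 1.15 (SE 0.30). At all 3 the knockout arrays were above the wild type arrays, with knockout pool 2 the lowest of the knockouts. The fourth probe set, 1443265_at, read between 11.6 and 14.9 in all arrays, far under the control level, and informs on neither genotype. The Cd44 pattern differed from that of Myb and Kit within the genotypes: wild type pool 3, the lowest array for those genes, was the highest wild type pool at the 3 bright Cd44 probe sets. Macrophages carry Cd44 too. The summed signal of 10 macrophage markers ran from 22650 to 39020 in wild type and from 28240 to 37720 in knockout, with all 10 above the control level in every array. Of the 10, 6 were higher and 4 lower in knockout, with a median of 0.10. The adhesion molecule gene Vcam1 was the 1 macrophage marker whose groups did not overlap, at -0.68 (SE 0.27), where 9.85% of all genes separated downward. The part of macrophages in the Cd44 signal was not tested.

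**Figure D2:**
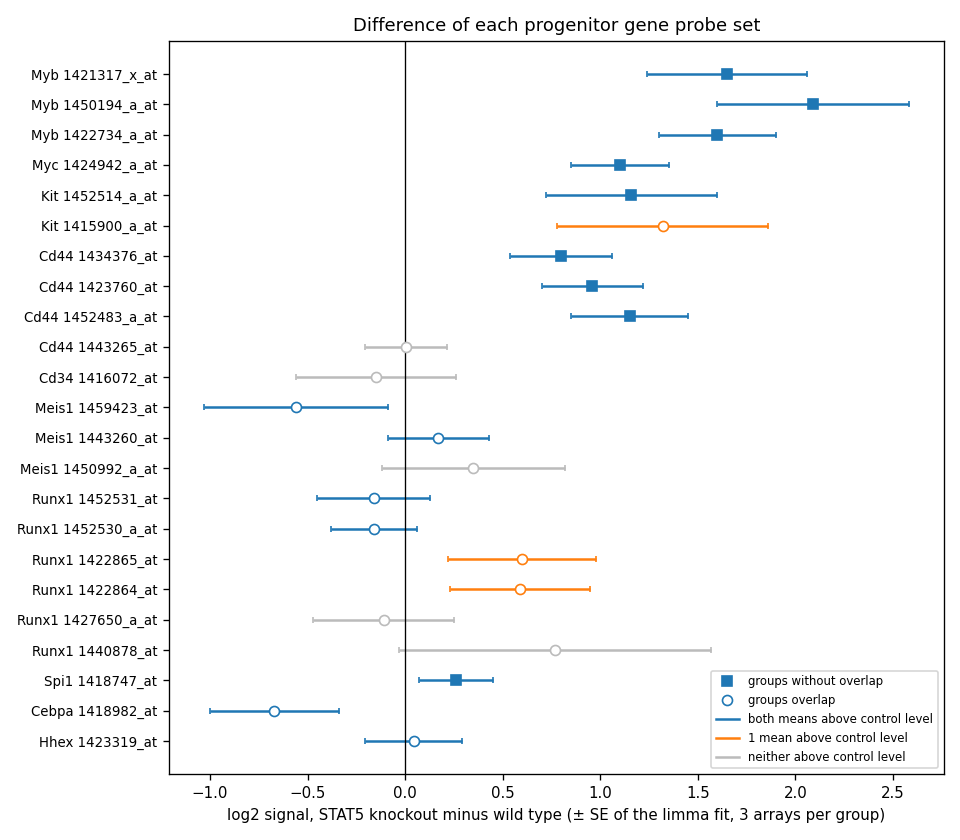
Difference in log2 signal, STAT5 knockout minus wild type (x axis), with the SE of the limma fit for each of the 23 probe sets (y axis). Filled squares are probe sets whose groups do not overlap, open circles those that overlap, and colours give how many genotype means lay above the control level; the 8 filled squares of Myb, Myc, Kit and Cd44 lie between 0.80 and 2.09, and the ninth is Spi1 at 0.26.

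Myb, Kit and Cd44 were each higher in knockout, although Cd44 differed from the other genes within the genotypes. The 250 bases before their annotated starts are shown, with matches to 4 motifs in capitals. The sequences are RefSeq's, build GRCm38.p6, on the gene's strand, and windows were matched for 8 of the 10 genes, not for Myc and Spi1. The motifs, searched on both strands, were the STAT motif TTCNNNGAA, the GATA factor motifs AGATAA with its variant AGATAG and, starting with another base, TGATAA with its variant TGATAG, the MYC motif CACGTG, and the MYB motifs CAACTG with its variant CAACGG and, starting with another base, TAACTG with its variant TAACGG. Matches to different motifs do not overlap in the windows shown. The Myb window is chr10:21160985-21161234, minus strand, the Kit window chr5:75574737-75574986, plus strand, and the Cd44 window chr2:102901666-102901915, minus strand.
Myb: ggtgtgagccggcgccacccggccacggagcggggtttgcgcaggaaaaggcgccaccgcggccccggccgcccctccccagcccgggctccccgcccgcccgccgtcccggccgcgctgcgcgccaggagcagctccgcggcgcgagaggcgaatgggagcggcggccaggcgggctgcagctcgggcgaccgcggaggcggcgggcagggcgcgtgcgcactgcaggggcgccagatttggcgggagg
Kit: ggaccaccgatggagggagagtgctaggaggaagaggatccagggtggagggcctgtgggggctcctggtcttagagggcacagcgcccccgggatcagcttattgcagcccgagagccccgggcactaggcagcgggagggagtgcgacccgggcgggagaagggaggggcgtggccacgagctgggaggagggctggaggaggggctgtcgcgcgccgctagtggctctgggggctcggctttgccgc
Cd44: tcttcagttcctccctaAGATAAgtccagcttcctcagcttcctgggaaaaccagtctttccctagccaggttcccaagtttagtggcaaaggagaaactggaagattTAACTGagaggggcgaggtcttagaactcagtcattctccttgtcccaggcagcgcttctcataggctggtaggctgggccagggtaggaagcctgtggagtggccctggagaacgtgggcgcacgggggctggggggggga

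The Myb and Kit windows held no match to any of the motifs, and the Cd44 window held AGATAA and TAACTG once each. Of the 10 windows of the 8 genes (Kit and Runx1 have 2 each), 0 held TTCNNNGAA, 2 a GATA motif, 1 CACGTG and 2 a MYB motif. Over all 32851 windows of this length the shares were 7.02%, 26.5%, 6.02% and 23.7%. The windows also differed in base composition. Myb had 81.2% G and C with 40 CG dinucleotides, Kit 70.8% with 17 and Cd44 56.4% with 5, where the median of all windows was 52.4% and 6. A match is a run of letters and not a measured binding site, and a window without one says nothing on sites elsewhere.

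Spi1 encodes PU.1, a factor of myeloid and lymphoid cells that early erythroid progenitors must lose. Its 1 probe set read 421, 475 and 443 in wild type and 520 (519.9), 547 and 534 in knockout. Each knockout pool was above each wild type pool, by a small margin, with a difference of 0.26 (SE 0.19) or 1.20-fold and an adjusted p of 0.731 over all probe sets (limma). The difference became 0.37 after each array was centred on its median. Of 18 measured myeloid genes other than the 10, which include genes that PU.1 and C/EBPα are known to activate, 9 were above 0 and 9 below, with a median of 0.039. Groups without overlap were found upward for 1 of them, Cd33, and downward for none, where 7.02% and 9.85% of all genes were separated. Cd33, a sialic acid receptor of myeloid cells, was at least 1.40-fold higher in knockout.

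Cebpa encodes C/EBPα, a factor of granulocyte and monocyte progenitors and of hepatocytes. Its 1 probe set read 1338, 1920.1 and 884 in wild type and 788, 779 and 926 in knockout. Wild type pool 3 fell inside the knockout range, so the groups overlapped, and the difference was -0.67 (SE 0.33), the lowest among the 15 probe sets with both means above the control level. Without wild type pool 2, its brightest array, the difference was -0.39. Hepatocyte markers varied with it across the arrays. As deviations from the wild type mean of log2 signal, Cebpa stood at 0.03, 0.55 and -0.57 in wild type pools 1 to 3 and at -0.74, -0.75 and -0.51 in knockout pools. The mean over 10 hepatocyte markers, in the same order, was -0.033, 0.45 and -0.42, and then -0.77, -0.80 and -0.57. The 2 profiles differed by a root mean square of 0.084 over the 6 arrays, and those of the other 9 genes differed from the hepatocyte mean by 0.458 or more. All 10 markers were lower in knockout, as were 10570 of all 18193 genes, and 7 of the 10 were without overlap, where 9.85% of all genes separated downward. They had a median of -0.69 and summed signals of 143900 to 238000 in wild type and 123800 to 136700 in knockout. The lowest differences among the separated ones were those of the plasma protein gene Ahsg, at -1.11 (SE 0.33), and the lipoprotein gene Apob, at -1.09 (SE 0.40), whose other probe set gave 0.09. This comparison was made after the values were seen, and the part of hepatocyte RNA in the Cebpa signal was not tested.

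**Figure D3:**
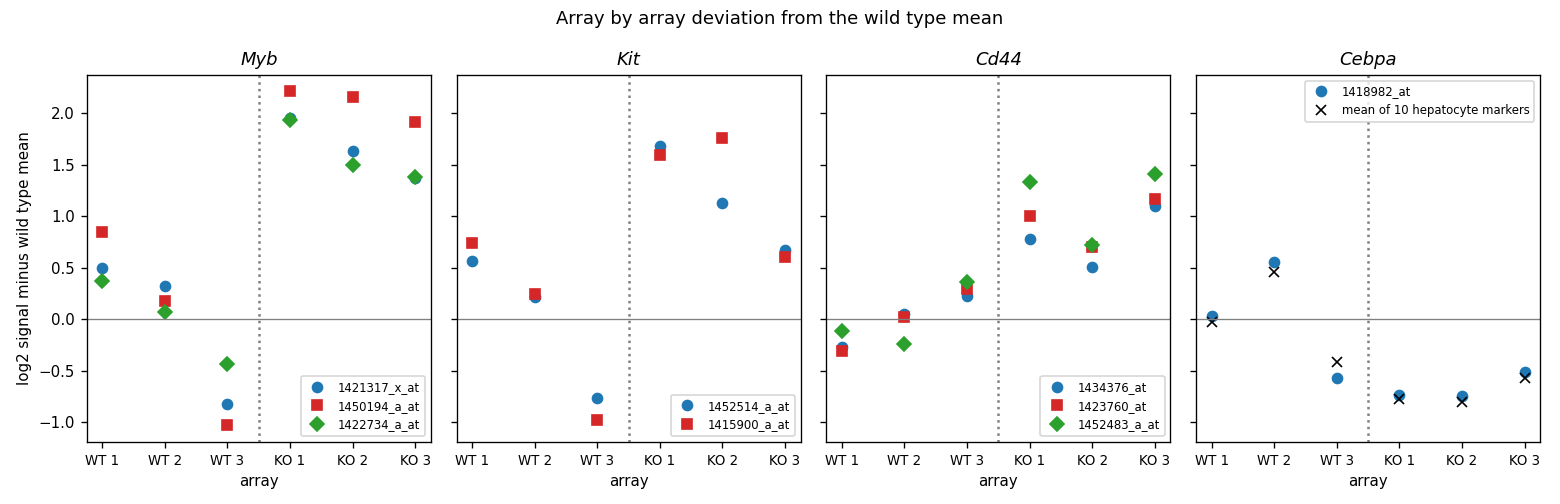
Deviation of log2 signal from the wild type mean (y axis) in each of the 6 arrays (x axis) for probe sets of Myb, Kit, Cd44 and Cebpa, with the mean of 10 hepatocyte markers as crosses beside Cebpa. Wild type pool 3 is lowest for Myb and Kit and highest of the wild types for Cd44, and the Cebpa points lie close to the crosses in every array.

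Hhex, a homeobox gene of blood and liver progenitors, read 709, 725 and 556 in wild type and 788, 544 and 731 in knockout. The groups overlapped throughout and the difference was 0.044 (SE 0.25). Cd34, a sialomucin of stem cells and endothelium, was above the control level in 1 of 6 arrays, wild type pool 2 at 209.6, and read 82.9 to 139 in the other 5. Both genotype means were under that level, so no fold is given. Of 10 endothelial markers, 0 to 5 were under the control level in an array, and their summed signal was 2992 to 5333 in wild type and 3014 to 3454 in knockout. Of the 10, 2 were higher and 8 lower in knockout, with a median of -0.25. Lyve1, a hyaluronan receptor gene of sinusoidal endothelium, was the 1 of them whose groups did not overlap. It was at least 4.04-fold lower in knockout, where 9.85% of all genes separated downward.

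Runx1, a master factor of the first definitive blood stem cells, has 6 probe sets that fall into 3 levels of brightness. The brightest, 1452531_at, read 937, 1123 and 1576 in wild type and 909.9, 1304 and 1007 in knockout, a difference of -0.16 (SE 0.29). Probe set 1452530_a_at read 588, 456 and 455 against 412, 495 and 427, with a difference of -0.16 (SE 0.22). Both pairs of groups overlapped. At 2 probe sets close to the control level, 1422865_at and 1422864_at, wild type means were under it and knockout means just above it. Their differences of 0.60 (SE 0.38) and 0.59 (SE 0.36) therefore stand only for at least 1.07-fold and at least 1.04-fold. The last 2 probe sets read 6.37 to 45.1 and were under the control level in every array.

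Meis1, a homeobox gene of stem cells and megakaryocyte progenitors, has 3 probe sets. At 1459423_at the signals were 330.5, 332 and 215 in wild type and 224, 103 and 319 in knockout. Knockout pool 2 was the lowest, below the control level, and the difference of -0.56 (SE 0.47) was -0.10 without it. Probe set 1443260_at read 235, 199.9 and 195 against 179, 285 and 253, a difference of 0.17 (SE 0.26). The groups overlapped at both, with opposite signs, and the third probe set lay under the control level in all 6 arrays. Megakaryocyte markers, which Meis1 accompanies, summed to 4025, 6207 and 14470 in wild type pools 1 to 3 and to 4576, 4689 and 5838 in knockout. The part of megakaryocytes in the Meis1 signal was not tested.

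The profiles most like those of Myb, Myc and Kit were sought among 11165 other genes with both means above the control level. Likeness was the root mean square difference between deviations from the wild type mean over the 6 arrays, so that a small value means a close match. For Myb the closest were Flot1, a membrane raft scaffold gene (0.304), Ndrg2 (0.338), the ubiquitin ligase gene Mid1 (0.360), the phosphatidate phosphatase gene Lpin1 (0.375) and Rec114, a gene of meiotic recombination (0.416). Kit stood at 0.371 from Myb and would rank between Mid1 and Lpin1, while Myc stood at 0.532 and Cd44 at 0.859. For Myc the closest were the histone demethylase gene Kdm3a (0.122), the tyrosine phosphatase gene Ptpn2 (0.164), the acyl-CoA synthetase gene Acsl5 (0.168), the transporter gene Abcb9 (0.169) and Tex9 (0.174). For Kit they were Flot1 (0.247), the adaptor gene Samsn1 (0.294), Rer1 (0.308), Plk5 (0.329) and the adaptor gene Dapp1 (0.331). These profiles were picked for likeness over 6 arrays of 2 genotypes and carry no test.

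Genes that work with MYB, MYC and KIT were then counted, 1 probe set per gene. The counts of separated genes in each list stand beside 7.02% of all genes upward and 9.85% downward. Of 9 measured MYB relatives and cofactors, 7 were above 0 and 2 below, with a median of 0.31 beside -0.085 for all genes. Crebbp, the gene of a coactivator that MYB binds, differed by 0.24 (SE 0.19) without overlap. Hipk2, a kinase gene, fell by 0.84 (SE 0.18), from 13.62 ± 0.09 to 12.78 ± 0.18 (adjusted p = 0.0401, limma with the trend over all genes, a fit that called 0.44% of genes). Without the trend its adjusted p was 0.368. Hipk2 has 7 other probe sets, and all gave a lower mean in knockout.

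The 18 genes of the MYC network were split 9 and 9, with a median of 0.017. Mga, which encodes a MAX partner that represses, was without overlap at 0.40 (SE 0.21), although its other probe sets gave both signs, and Mxi1, a MYC antagonist gene, at -0.23 (SE 0.17). Of 29 measured genes that MYC is known to induce, 17 were above 0 and 12 below, with a median of 0.041. Groups did not overlap upward for 4 of the 29, where 7.02% of all genes separated upward, among them the ribosome assembly gene Ppan, at 1.12 (SE 0.20), and the nucleolar methyltransferase gene Fbl, at 0.37 (SE 0.19). Downward this held for 1, Odc1, which encodes the first enzyme of polyamine synthesis and differed by -0.47 (SE 0.18). Ppan read 304, 276 and 350 (349.95) in wild type and 774, 606 and 641 in knockout, and its adjusted p with the trend was 0.066. The 7 measured genes that MYC is known to repress had a median of -0.068. Within them Ndrg2, a stress response gene, rose by 1.68 (SE 0.27), from 8.43 ± 0.45 to 10.10 ± 0.15 (adjusted p = 0.0234, limma with the trend, and 0.235 without it). The cell cycle inhibitor gene Cdkn1b differed by 0.43 and the DNA damage gene Gadd45a by -0.38, both without overlap.

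Of 31 measured genes of KIT ligand and signalling, 18 were above 0 and 13 below, with a median of 0.040. Kitl, the gene of the ligand itself, differed by 0.010. The groups did not overlap upward for 3 of the 31 and downward for 1, where 7.02% and 9.85% of all genes separated. Upward these included Cbl, a ubiquitin ligase gene of activated receptors, at 0.79 (SE 0.23), and Pik3r1, the regulatory subunit of PI3 kinase, at 0.33 (SE 0.18). Downward it was the adaptor gene Grb7, at -0.18 (SE 0.18). Cbl read 704, 1081 and 1074 in wild type and 1605, 1613 and 1638 in knockout. Among 14 relatives and partners of CD44 and CD34 the median was -0.10. Ezr, which encodes ezrin, a linker of CD44 to actin, differed by 1.02 (SE 0.28) without overlap, but its other probe set gave -0.34. The galectin gene Lgals9 differed by 0.55 (SE 0.25). Podxl, a sialomucin gene of the CD34 family, was at least 1.79-fold lower in knockout.

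Relatives and partners of the other transcription factors, 26 measured, had a median of -0.020, with 6 of the 26 separated upward and 4 downward, where the shares over all genes were 7.02% and 9.85%. Cebpd, a C/EBP family gene, read 108, 154 and 183 in wild type and 382, 443 and 730.3 in knockout, at least 2.95-fold higher, while its other probe set gave 0.37. Ddit3, the C/EBP family member of the stress response, differed by 0.56 (SE 0.25). Runx1t1, a corepressor gene, differed by -0.76 (SE 0.20) and was lower at all of its probe sets, and Meis3 was at least 1.20-fold lower. Apart from Hipk2, Ndrg2 and Cd36, none of the genes in the 11 pathway lists passed the fit with the trend, and none passed without it. Of all 18193 genes the fit with the trend called 80, or 0.44%, and the fit without it called 8, or 0.044%.

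**Figure D4:**
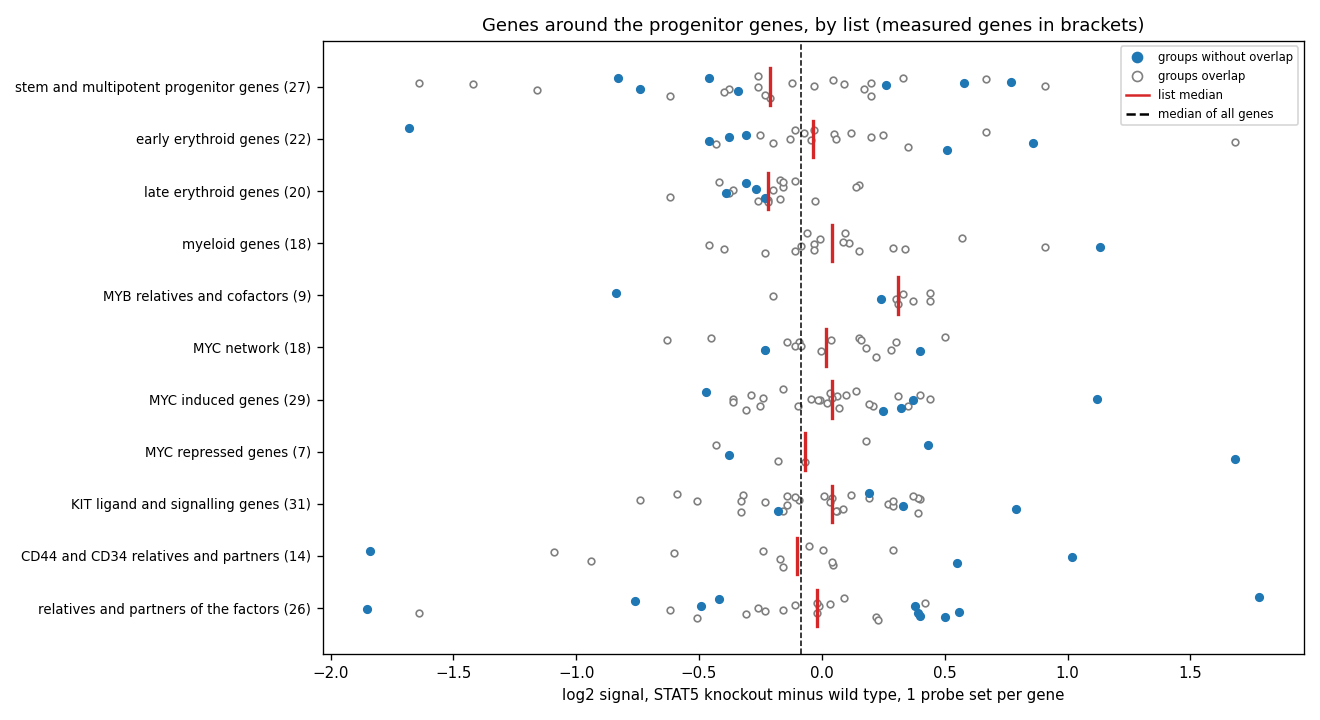
Difference in log2 signal, STAT5 knockout minus wild type (x axis), of each measured gene in the 11 pathway lists (y axis), with 1 probe set per gene and the 10 progenitor genes left out. Red bars are list medians, between -0.22 and 0.31, the dashed line is the median of all genes, and filled points are genes whose groups do not overlap.

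Wider lists of stem and erythroid genes were counted last. Of 27 measured stem and multipotent progenitor genes, 11 were above 0 and 16 below, where 10570 of all 18193 genes were below. Of the 27, 3 were separated upward and 4 downward, beside 7.02% and 9.85% of all genes. Their median was -0.21, and -0.12 over the 21 whose brighter genotype was above the control level. It was -0.049 without wild type pool 1, -0.054 without wild type pool 2, -0.11 without knockout pool 1 and -0.050 without knockout pool 3. Upward, Lyl1, a gene of the same transcription factor family as Tal1, differed by 0.58 (SE 0.22), and the surface receptor gene Cd48 by 0.77 (SE 0.23). Downward, the endoglin gene Eng differed by -0.83 (SE 0.27) and Hmga2, a fetal chromatin gene, by -0.74 (SE 0.27). Early erythroid genes, 22 measured, had a median of -0.037, with 2 separated upward and 4 downward, beside 7.02% and 9.85% of all genes. Among them Cd36, which encodes a scavenger receptor that takes up fatty acids, fell by 1.68 (SE 0.19; adjusted p = 0.0030, limma with the trend, and 0.108 without it). Vamp5 differed by 0.86 (SE 0.22), although its other probe set gave 0.18, the integrin gene Itga4 by 0.51 (SE 0.17) and the cytokine receptor gene Csf2rb by -0.46 (SE 0.19). Of 20 late erythroid genes, 18 were lower in knockout, with a median of -0.22, where 10570 of all 18193 genes were lower. None was called in either limma fit, where 0.044% of all genes were called without the trend and 0.44% with it. The groups did not overlap downward for 4 of the 20, where 9.85% of all genes separated downward, among them the membrane skeleton genes Epb42 (-0.39, SE 0.19) and Add2 (-0.31, SE 0.19). As a mean deviation from the wild type mean, late erythroid genes stood at -0.21 in wild type pool 3, the pool with the lowest Myb and Kit, and between -0.30 and -0.081 in the knockout pools. The part of the mix of maturation stages in the differences of Myb, Myc, Kit and Cd44 was not tested.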

How the data were processed

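Per the labels' protocols, each of the 6 cell pools gave RNA for 1 Affymetrix Mouse430_2 array. Groups and replicate numbers come from the sample titles. The deposited values are intensities on a linear scale, 1 per probe set and array, and per the submitters' processing notes RMA and Partek were used, in versions not given. The mean of every array is 500 after trimming 2% at either end, and quantiles are unequal between arrays, which standard RMA does not give; the sources used here do not give this scaling step.

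Here the deposited intensities were taken to log2, adding nothing and filtering nothing, after leaving out 64 control probe sets. The differences and SEs come from limma 3.58.1 in R 4.3.3 (lmFit and eBayes, Benjamini-Hochberg adjustment, threshold 0.05), over 45037 probe sets or, with the brightest probe set per gene, 18193 genes. The code was tested on simulated data. Probe sets were named from GEO's platform annotation, where 34945 have 1 symbol, 932 several and 9160 none. Where the dimmer genotype mean lay under the control level, its arrays were raised to that level and "at least N-fold" is given. Of each list of genes, the 2 largest separated differences in each direction are named, and for Myb, Myc and Kit the 5 most alike profiles. The members and lists were chosen with earlier results of these data known. Beside 11 pathway lists, 7 lists of cell type markers were used; 22 genes stand in over 1 list. Stellate and stromal markers summed to 3507 to 6776 in wild type and 3495 to 6255 in knockout pools. Alternatives were a mean-variance trend, quantile normalization, median centring, 32 added before log2, leaving out the dimmest 50% of probe sets, weights per array, a replicate block, the methods' t-test, leaving out each array, and other choices of probe set per gene.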

Additional observations from a re-analysis of the deposited data

How the results depend on the processing

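The differences of Myb, Myc and Kit, and of Cd44 at its 3 bright probe sets, stayed above 0 in every alternative run, and of 253 alternative values over the 23 probe sets 15 turned sign, all at Cd34, Hhex, 1427650_a_at and 1452531_at of Runx1, or the dimmest probe set of Meis1 or Cd44. The brightest Runx1 probe set, 1452531_at, was at 0.049 without wild type replicate 3. The count of probe sets with knockout above wild type ran from 9 to 11 without 1 array, beside 10.4% to 11.7% of all probe sets, and that with knockout below from 0 to 2, beside 13.2% to 20% of all. The number of probe sets called was 0 in the main setting, 70 with the mean-variance trend, 5 with 32 added and 20 without the dimmest 50%, and 0 without any 1 array or by the methods' t-test; that with the trend ran from 7 to 78 without 1 array, in fits added after seeing the data.

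Replicate numbers were not taken as pairs. Deviations of same-numbered arrays correlated at 0.0166, 0.0289 and 0.0292, and not every array correlated best with its own number. Such low values over all probe sets cannot decide whether same-numbered pools belong together. At Kit 1452514_a_at and all 3 Myb probe sets the signal fell from pool 1 to pool 3 in both genotypes, which was not so at Cd44. The replicate block gave an SE of 0.23 instead of 0.44 at Kit 1452514_a_at, and of 0.51 instead of 0.47 at Meis1 1459423_at. With the replicate block 0 probe sets were called, and 61 with the trend and the block.

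The median of all genes was -0.085 as deposited; quantile normalization gave -0.036 and median centring 0.028. Median centring moved list medians to 0.075 for early erythroid genes, 0.43 for MYB relatives and cofactors, 0.13 for the MYC network, 0.045 for MYC repressed genes, 0.15 for KIT signalling, 0.010 for CD44 and CD34 partners and 0.093 for partners of the other factors. The MYC network median was -0.084 without _x_at, _s_at and _a_at probe sets, and that of CD44 and CD34 partners was -0.022 with the mean of all probe sets. Without 1 array the medians ran from -0.020 to 0.17 for the MYC network, 0.00065 to 0.18 for MYC induced genes, -0.16 to 0.025 for MYC repressed genes, -0.18 to -0.049 for stem genes, -0.12 to 0.045 for early erythroid genes, -0.061 to 0.17 for myeloid genes, -0.0080 to 0.055 for KIT signalling, -0.17 to -0.033 for CD44 and CD34 partners and -0.076 to 0.0051 for partners of the other factors, while that of all genes ran from -0.14 to -0.049. The causes were not tested. Signals near the control level limit Cd34, the dim Runx1 and Meis1 probe sets and 1 of Kit.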
